A study of Mus musculus with 4 samples.

Results

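The Slc25 genes encode the mitochondrial solute carriers, the transporters of the inner mitochondrial membrane. They were described across germ cells and somatic cells of the fetal mouse gonad at 15.5 days post coitum (dpc). Every gene whose symbol reads Slc25a followed by a number was taken, which gave 44 of 20299 genes. RNA was sequenced from 4 sorted fractions with 1 library each: male germ cells, female germ cells, male gonadal somatic cells and female gonadal somatic cells. All came from gonads of fetuses of CF1 mothers and TgOG2 fathers, a cross in which the Oct4 promoter drives the green fluorescent reporter EGFP in germ cells. Fluorescent cells were collected as germ cells and all other gonadal cells as somatic cells, so the somatic fraction is a mixture of cell types. The sources used here do not say how many animals stand behind a library.

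Mitochondrial carriers share a fold of repeated membrane-spanning modules, and each moves a small set of metabolites between the cytosol and the matrix. Adenine nucleotide carriers export ATP made in the matrix in exchange for ADP. Other members carry phosphate, nucleotides, cofactors, carboxylates, amino acids, acylcarnitines, glutathione or iron. Slc25a31 encodes the ADP/ATP carrier isoform that mice use in the germ line and need for male meiosis, while Slc25a4 is the isoform of heart and skeletal muscle and Slc25a5 that of many dividing tissues.

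Values are given as scaled signal per 1000000 (SPM), a level in 1 library, and as SPM per kb of the listed gene length where genes are compared with each other. Estimated depth was 17.5 to 24.9 M fragments, where M stands for 1000000, and 3 fragments were worth 0.113 to 0.180 SPM. Intervals on ratios are 95% exact conditional binomial intervals on those estimated fragments and cover counting error only. The germ cell markers summed to 6378 SPM in male and 4716 SPM in female germ cells, against 38.0 SPM in male and 9.39 SPM in female somatic cells, with none of the 8 listed at 0, though Pou5f1 was under 3 fragments in female somatic cells. The gonadal stroma markers summed to 211 SPM (male) and 60.7 SPM (female) in germ cells, against 16283 SPM (male) and 6047 SPM (female) in somatic cells, and none of the 8 was at 0 in any library. Genes were tested for a difference between germ and somatic cells with limma, using the male and the female library as the 2 samples of each cell type, and a Benjamini-Hochberg adjusted p under 0.05 over 14148 genes was the threshold. Male against female comparisons set 1 library against 1 and were not tested.

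The members together summed to 1877 SPM in male germ cells, 2430 SPM in female germ cells, 1907 SPM in male somatic cells and 2078 SPM in female somatic cells. This was 0.180% to 0.232% of all signal. Of the 44 members, 28 reached 5 SPM in every library, 35 reached 1 SPM in every library, and 9 stayed under 5 SPM everywhere. Per kb, Slc25a4, Slc25a31 and Slc25a3 were the 3 highest members in male germ cells, and Slc25a31, Slc25a17 and Slc25a3 in female germ cells. In both somatic libraries the 3 highest were Slc25a4, Slc25a3 and Slc25a11.

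**Figure D1:**
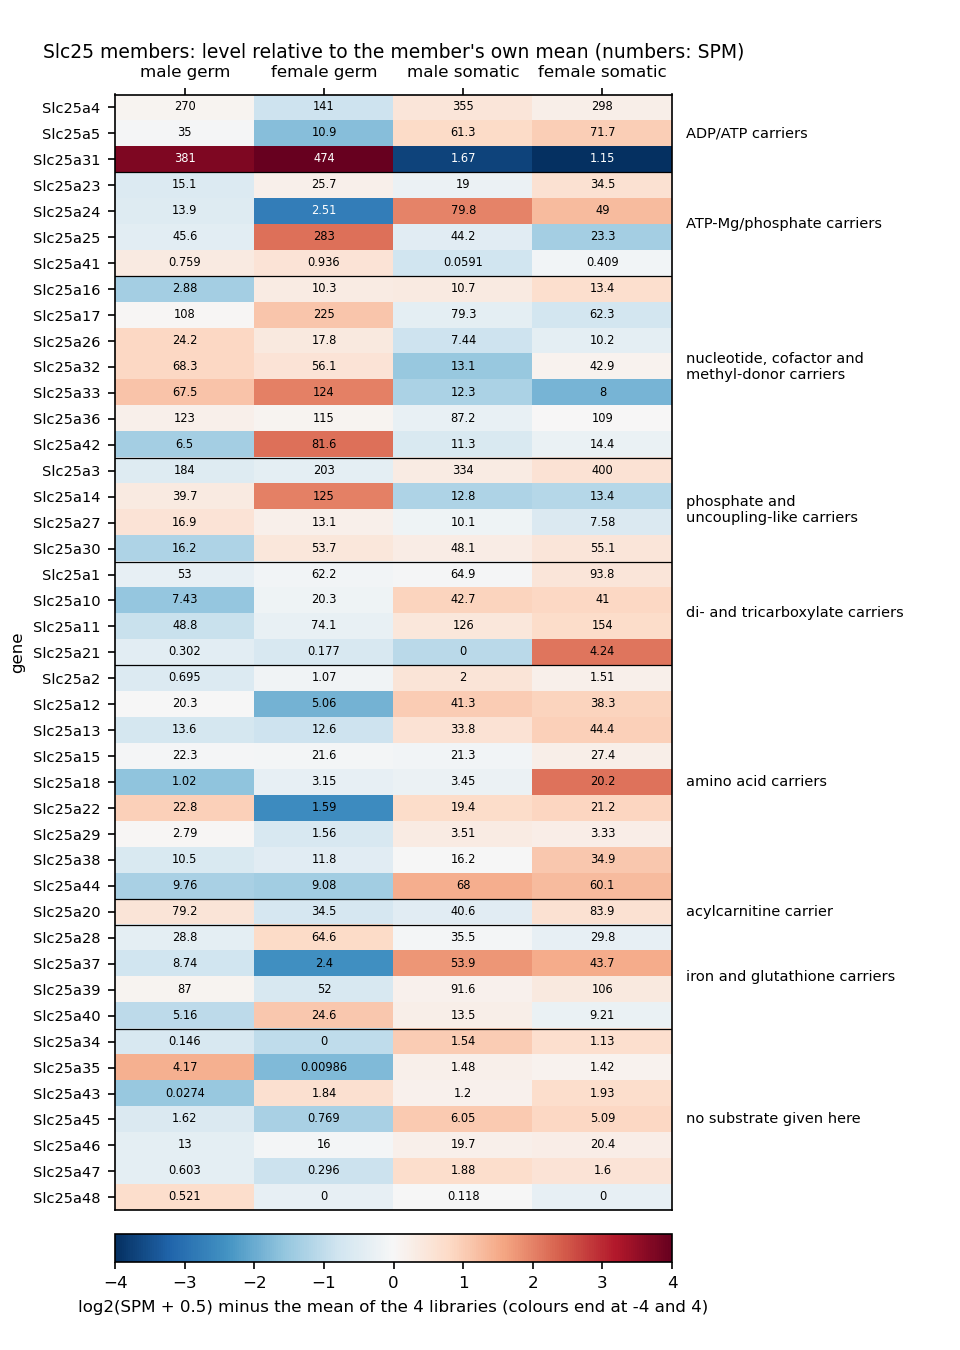
Level of 43 of the 44 members in each library, printed in SPM and coloured by log2(SPM + 0.5) minus the member's own mean over the 4 libraries; rows are grouped by the solute carried. Slc25a31 has the largest germ minus somatic difference of the 41 tested members, 381 and 474 SPM in the germ libraries against 1.67 and 1.15 SPM in the somatic libraries.

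Of the 3 ADP/ATP carriers, Slc25a31 rose in germ cells, while Slc25a4 and Slc25a5 were lower in both germ libraries without passing the test. Slc25a31 (mm9 chromosome 3, 40512792 to 40530016) reached 381 SPM in male germ cells and 474 SPM in female germ cells, against 1.67 SPM in male somatic cells and 1.15 SPM in female somatic cells. Both germ libraries lay far above both somatic libraries. Its log2 difference, germ minus somatic on log2(SPM + 0.5), was 7.81 ± 0.51 (SE, 2 libraries per cell type), and it passed the test with a limma adjusted p of 0.0328. Within males the level in germ cells was 228-fold that in somatic cells (interval 156 to 341), and within females 412-fold (284 to 611). In the somatic libraries Slc25a31 stood at 0.439% of its male and 0.242% of its female germ level. The 8 germ cell markers stood there at 0.311% to 0.957% of their male and 0.0564% to 0.834% of their female germ level, so Slc25a31 lay inside both ranges. Whether its somatic signal comes from germ cells left in that fraction was not tested. In bulk fractions such as these, fewer cells of a type and less RNA per cell cannot be told apart.

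Slc25a4 (chromosome 8, 47292697 to 47296363) had 269.6 SPM in male germ cells and 141 SPM in female germ cells, against 355 SPM in male somatic cells and 298 SPM in female somatic cells. The groups did not overlap, the log2 difference was -0.74 ± 0.46, and it did not pass (limma adjusted p = 0.334). Slc25a5 (chromosome X, 34335646 to 34338801) had 35.0 SPM (male) and 10.9 SPM (female) in germ cells, against 61.3 SPM (male) and 71.7 SPM (female) in somatic cells, and it did not pass either (log2 difference -1.73 ± 0.69, limma adjusted p = 0.163). With the male germ library left out, the log2 differences were -1.2 for Slc25a4 and -2.56 for Slc25a5, from the female germ library alone. Copies of Slc25a5 lie elsewhere in the mouse genome as pseudogenes, so its reads may be shared with them.

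Per kb, the isoforms summed to 452 SPM per kb for male and 360.0 SPM per kb for female germ cells, and to 371 SPM per kb for male and 328 SPM per kb for female somatic cells. Slc25a31 made up 39.8% (male) and 62.2% (female) of that sum in germ cells, against 0.213% (male) and 0.166% (female) in somatic cells. Slc25a4 held 53.9% (male) and 35.4% (female) in germ cells, against 86.5% (male) and 82.2% (female) in somatic cells. For Slc25a5 the shares were 6.24% (male) and 2.43% (female) in germ cells, against 13.3% (male) and 17.6% (female) in somatic cells. The sum thus varied less between fractions than the isoforms within it.

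**Figure D2:**
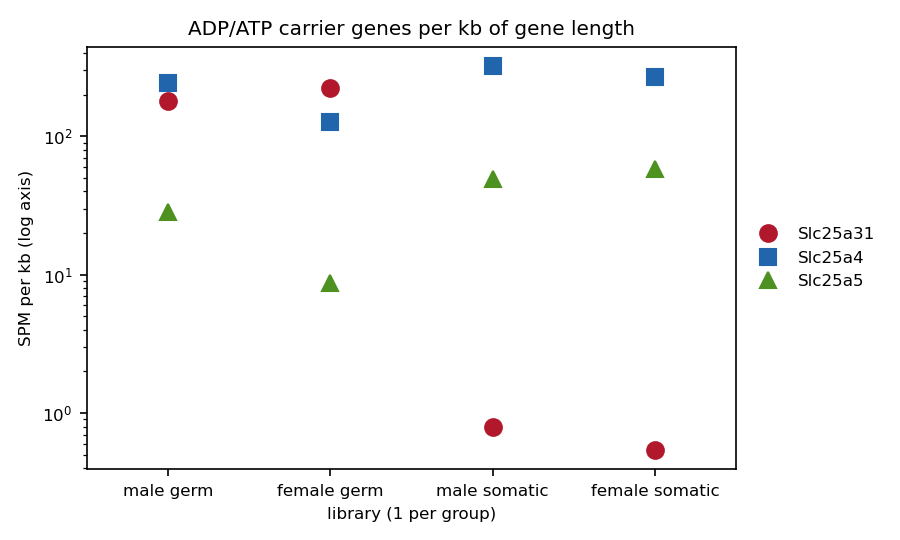
Level of Slc25a31, Slc25a4 and Slc25a5 in SPM per kb of gene length on a log axis, with 1 point per library. Slc25a31 stands at 180.0 and 224 SPM per kb in the germ libraries and under 1 SPM per kb in the somatic libraries, while Slc25a4 stays between 127 and 321 SPM per kb in all 4.

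The promoter bases upstream of the start are shown for these 3 isoforms and for Slc25a33, the other member that passed as higher in germ cells. They are the 250 bases before the annotated start from RefSeq on build GRCm38.p6, which is not the build of the expression files. Capitals mark matches on either strand to TCCCGC (the E2F core), CACGTG (the E-box), CCGGAAG (the ETS core), TGCGCA (the NRF1 core), AAGGTCA (the ERR core) or CCAAT. No 2 of the marked matches overlap. The windows are chr3:40708621-40708870 on the plus strand for Slc25a31, chr8:46211063-46211312 on the minus strand for Slc25a4, chrX:36795347-36795596 on the plus strand for Slc25a5 and chr4:149774268-149774517 on the minus strand for Slc25a33.
Slc25a31: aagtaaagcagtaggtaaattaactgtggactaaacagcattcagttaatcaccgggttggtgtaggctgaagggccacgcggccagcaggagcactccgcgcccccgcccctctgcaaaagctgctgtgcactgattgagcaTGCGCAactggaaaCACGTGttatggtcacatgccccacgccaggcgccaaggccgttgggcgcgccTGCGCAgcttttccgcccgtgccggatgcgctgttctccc
Slc25a4: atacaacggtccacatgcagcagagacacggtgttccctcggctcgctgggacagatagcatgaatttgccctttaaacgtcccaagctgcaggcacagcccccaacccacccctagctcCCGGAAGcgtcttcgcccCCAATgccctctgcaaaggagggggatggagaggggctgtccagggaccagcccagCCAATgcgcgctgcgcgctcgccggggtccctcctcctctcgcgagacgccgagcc
Slc25a5: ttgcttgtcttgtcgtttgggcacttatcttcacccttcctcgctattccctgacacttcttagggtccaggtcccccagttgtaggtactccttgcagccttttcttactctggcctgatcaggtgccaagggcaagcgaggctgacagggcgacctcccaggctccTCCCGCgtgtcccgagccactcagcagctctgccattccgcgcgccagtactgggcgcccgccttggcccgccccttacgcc
Slc25a33: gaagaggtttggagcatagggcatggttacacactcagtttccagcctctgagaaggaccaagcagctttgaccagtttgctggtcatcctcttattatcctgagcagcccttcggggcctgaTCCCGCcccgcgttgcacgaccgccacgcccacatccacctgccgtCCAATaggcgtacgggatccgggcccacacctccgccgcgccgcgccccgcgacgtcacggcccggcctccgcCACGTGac
In these upstream bases Slc25a31 held the E-box core and a pair of NRF1 cores, Slc25a4 an ETS core and a pair of CCAAT boxes, and Slc25a5 an E2F core. Slc25a33 held an E2F core, a CCAAT box and the E-box core.

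For counting, each window also took in the 50 bases after the start. The RefSeq table held 34 of the 44 members in 43 windows, among 32851 windows of all genes. The E2F core was in 23.3% of the members' windows and 20% of all windows, and the E-box core in 18.6% of the members' windows and 7.15% of all. The ETS core was in 14.0% of the members' windows and 8.86% of all, and the NRF1 core in 9.30% of the members' and 7.76% of all. The ERR core was in 2.33% of the members' windows and 4.72% of all, and CCAAT in 48.8% of the members' and 37.4% of all. Some members have several windows, which can overlap. Slc25a31, whose window holds an E2F core 21 bases after the start, was the 1 member of these 34 with the E2F, E-box and NRF1 cores together, a set found in 0.298% of all windows. This was the 1 combination counted and is the one its window holds, so its rarity does not set Slc25a31 apart. The CpG ratio of the Slc25a31 window, observed over expected, was 0.826, against a median of 0.588 in the members' windows and 0.384 in all windows. It was not particular to Slc25a31, with 0.937 for Slc25a33, 0.775 for Slc25a4 and 0.669 for Slc25a5. These matches are letters in a window and were not tested against the expression values.

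Over the whole family, 2 of the 41 members that could be tested rose in germ cells, Slc25a31 and Slc25a33, against 2.5% of all genes tested. Slc25a44 was the 1 member that fell, against 5.56% of all genes. At an unadjusted p under 0.05 there were 12 members, against 31.4% of all genes. Both germ libraries stood above both somatic libraries for 10 of the 41 members, against 28.5% of genes, and below them for 21, against 33.8% of genes. The median log2 difference was -0.59 over the 41 members and -0.11 over all genes tested. The 3 members too low to test were Slc25a21, Slc25a41 and Slc25a48.

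Without any 1 of the 4 libraries the log2 difference of Slc25a31 was 7.61 to 8.01, in fits where 1 cell type rests on a lone library. Slc25a33 and Slc25a44 did not pass without the male somatic library (adjusted p = 0.116 and 0.390) or without the female somatic library (0.210 and 0.339). Scaling by the upper quartile also left Slc25a44 short of the threshold (adjusted p = 0.0541). With every gene that had any signal in the limma fit, none of the 3 passed and no gene of 18703 did, while at an unadjusted p under 0.05 there were 2025 genes higher and 2600 lower, with 3 and 7 members among them.

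**Figure D3:**
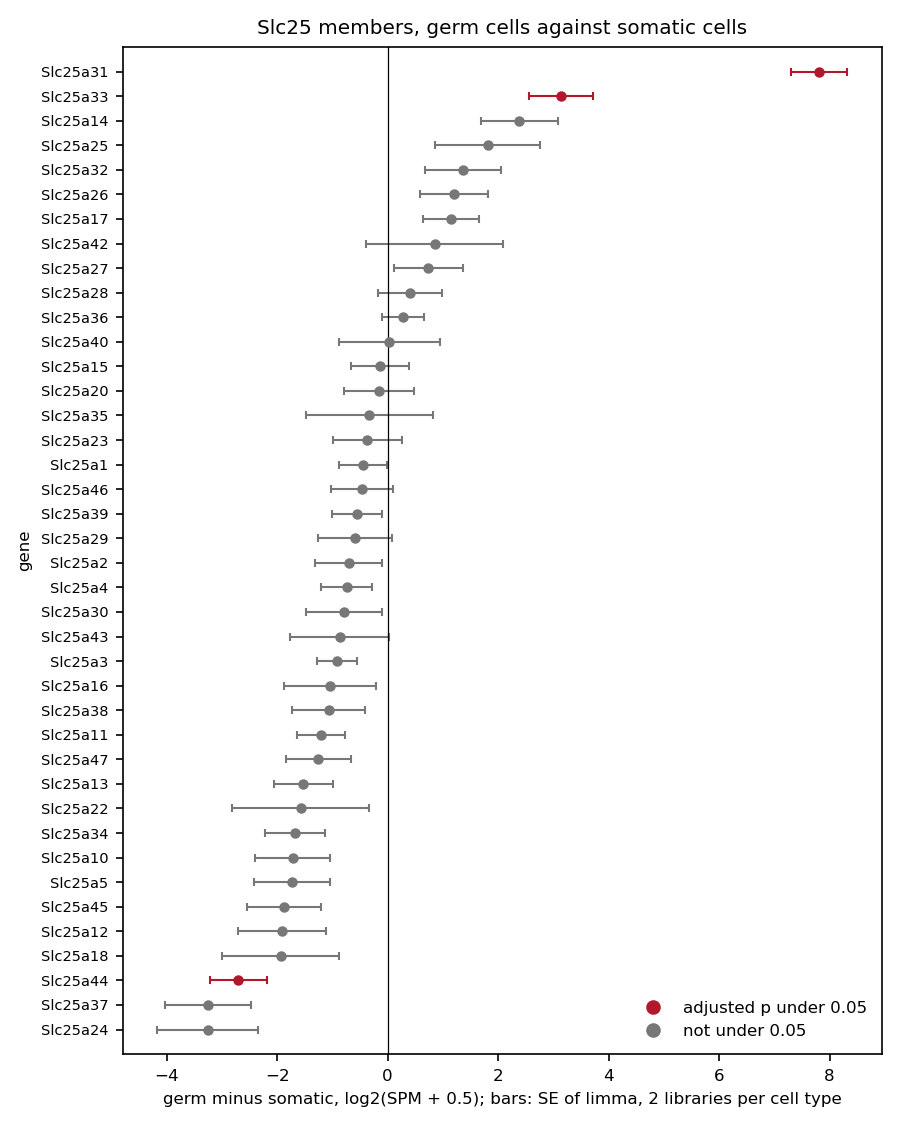
Germ minus somatic difference of 40 of the 41 tested members on the log2(SPM + 0.5) scale, with the SE of limma from 2 libraries per cell type; red marks an adjusted p under 0.05. Slc25a31 at 7.81 and Slc25a33 at 3.14 lie on the germ side and Slc25a44 at -2.70 on the somatic side, while Slc25a24 and Slc25a37 have larger differences than Slc25a44 with wider bars.

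Most carriers of nucleotides, cofactors and methyl donors stood higher in both germ libraries, though 1 of the 8, all tested, passed. Both germ libraries stood above both somatic libraries for 6 of them and below for 1, against 28.5% and 33.8% of all genes, with a median log2 difference of 1.17. Slc25a33, a pyrimidine nucleotide carrier (chromosome 4, 149118144 to 149148376), had 67.5 SPM in male germ cells and 124 SPM in female germ cells, against 12.3 SPM in male somatic cells and 8.0 SPM in female somatic cells. Its log2 difference was 3.14 ± 0.58 (limma adjusted p = 0.0436). The related pyrimidine carrier Slc25a36 was nearly level, at 123 SPM (male) and 115 SPM (female) in germ cells, against 87.2 SPM (male) and 109 SPM (female) in somatic cells (log2 difference 0.28 ± 0.38, limma adjusted p = 0.657). Slc25a26, the S-adenosylmethionine carrier, had 24.2 SPM (male) and 17.8 SPM (female) in germ cells, against 7.44 SPM (male) and 10.2 SPM (female) in somatic cells.

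Slc25a17, a peroxisomal cofactor carrier, had 108 SPM in male germ cells and 225 SPM in female germ cells, against 79.3 SPM in male somatic cells and 62.3 SPM in female somatic cells. It did not pass (log2 difference 1.14 ± 0.51, limma adjusted p = 0.201), and the difference was 1.67 with the male germ library left out. Slc25a32, a mitochondrial folate and FAD carrier, had 68.3 SPM (male) and 56.1 SPM (female) in germ cells, against 13.1 SPM (male) and 42.9 SPM (female) in somatic cells. The exceptions of the group were Slc25a16, with both germ libraries below both somatic libraries, and Slc25a42, whose germ libraries lay on either side of the somatic ones.

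Most amino acid carriers stood lower in germ cells. Of the 9, all tested, 1 passed, as lower, against 5.56% of all genes, both germ libraries stood below both somatic libraries for 7, against 33.8% of all genes, and the median log2 difference was -1.53. Slc25a44, a carrier of branched-chain amino acids (chromosome 3, 88214417 to 88229061), had 9.76 SPM in male germ cells and 9.08 SPM in female germ cells, against 68.0 SPM in male somatic cells and 60.1 SPM in female somatic cells. Its log2 difference was -2.70 ± 0.51 (limma adjusted p = 0.0445). The ornithine carrier Slc25a15 was close to level, at 22.3 SPM (male) and 21.6 SPM (female) in germ cells, against 21.3 SPM (male) and 27.4 SPM (female) in somatic cells. Slc25a13, an aspartate and glutamate carrier, had 13.6 SPM (male) and 12.6 SPM (female) in germ cells, against 33.8 SPM (male) and 44.4 SPM (female) in somatic cells. It did not pass (limma adjusted p = 0.127).

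The 3 tested carriers of di- and tricarboxylates stood lower in both germ libraries than in both somatic libraries, against 33.8% of all genes. None passed by limma, and 2 were lower at an unadjusted p under 0.05, against 18.7% of all genes. Their log2 differences were -1.72 to -0.44. With 3 genes these counts say little about the group. Slc25a11, the oxoglutarate and malate carrier, had 48.8 SPM (male) and 74.1 SPM (female) in germ cells, against 126 SPM (male) and 154 SPM (female) in somatic cells (log2 difference -1.2 ± 0.43, limma adjusted p = 0.134). With the female germ library left out, its log2 difference was -1.50 and that of the dicarboxylate carrier Slc25a10 was -2.42. The citrate carrier Slc25a1 had 53.0 SPM (male) and 62.2 SPM (female) in germ cells, against 64.9 SPM (male) and 93.8 SPM (female) in somatic cells. Slc25a3, the phosphate carrier, had 184 SPM (male) and 203 SPM (female) in germ cells, against 334 SPM (male) and 400 SPM (female) in somatic cells. It did not pass (log2 difference -0.92 ± 0.36, limma adjusted p = 0.159), and its groups did not overlap.

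Slc25a14, an uncoupling-like carrier on chromosome X (45976756 to 46015471), lay higher in both germ libraries, at 39.7 SPM in male and 125 SPM in female germ cells, against 12.8 SPM in male and 13.4 SPM in female somatic cells. Its log2 difference of 2.38 ± 0.70 did not pass (limma adjusted p = 0.0924), and it passed with sex as a term (0.0308). The fit with that term left 1 residual degree of freedom. Its prior degrees of freedom, which limma takes from all genes, were 25.7, against 3.15 in the main fit. Passes with sex as a term therefore rest largely on the variance of other genes. With the male germ library left out the difference was 3.20. Slc25a37, the mitoferrin that brings iron into mitochondria of red cell precursors, had 8.74 SPM (male) and 2.40 SPM (female) in germ cells, against 53.9 SPM (male) and 43.7 SPM (female) in somatic cells (log2 difference -3.24 ± 0.78, limma adjusted p = 0.0651). With sex as a term it passed (limma adjusted p = 0.011). The difference was -4.08 with the male and -2.41 with the female germ library left out. Of the 10 erythroid positions tested, 8 fell in germ cells, against 5.56% of all genes. In males 2 factor genes were not lower in germ cells. Gata1 had 1.70 SPM in male germ and 1.08 SPM in male somatic cells, and Klf1, too low to test, had 0.695 and 0.659 SPM. Hba-a1 and Hba-a2 are listed at nearly the same position with nearly equal values, as are Hbb-b1 and Hbb-b2, so each pair was counted once. The 11 positions summed to 297 SPM in male and 94.3 SPM in female germ cells, against 30303 SPM in male and 11325.5 SPM in female somatic cells. Of these, Hbb-bh1 was at 0 in the male germ library, 5 were at 0 in the female germ library, and none was at 0 in the somatic libraries. Their part in the level of Slc25a37 was not tested. The widely expressed mitoferrin Slc25a28 had 28.8 SPM (male) and 64.6 SPM (female) in germ cells, against 35.5 SPM (male) and 29.8 SPM (female) in somatic cells.

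Slc25a24, a calcium-regulated ATP-Mg and phosphate carrier (chromosome 3, 108926066 to 108971327), had 13.9 SPM in male germ cells and 2.51 SPM in female germ cells, against 79.8 SPM in male somatic cells and 49.0 SPM in female somatic cells. The log2 difference of -3.26 ± 0.91 did not pass (limma adjusted p = 0.0842). It passed with sex as a term (limma adjusted p = 0.00782), under the same limit of that fit as for Slc25a14. The difference was -4.39 with the male germ library left out. In germ cells Slc25a24 stood at 17.4% of its male and 5.13% of its female somatic level. The 8 stroma markers stood there at 0.543% to 2.85% in males and 0.560% to 5.68% in females, so Slc25a24 lay above their range in males and inside it in females. Other somatic lists had wider ranges, such as the endothelium markers at 3.83% to 126% in males and 1.19% to 116% in females. Whether the germ signal of Slc25a24 comes from somatic cells in that fraction was not tested.

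More members were past 2-fold between male and female germ cells than between male and female somatic cells, as were more genes overall. At this age male germ cells enter mitotic arrest while female germ cells are in meiotic prophase. Of the 33 members with 5 SPM or more in either germ library, 6 were at least 2-fold higher in male germ cells, against 26.8% of all genes, and 10 were at least 2-fold lower in them, against 26.3% of all genes. At 4-fold, 3 were higher in male germ cells and 3 lower, against 14% and 10% of all genes. Of 34 members in the somatic libraries, none was at least 2-fold higher in male somatic cells and 4 were lower, against 9.61% and 8.26% of all genes. At 4-fold there were 0 and 1, against 3% and 3.17%. No replicate stands behind any of these ratios.

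**Figure D4:**
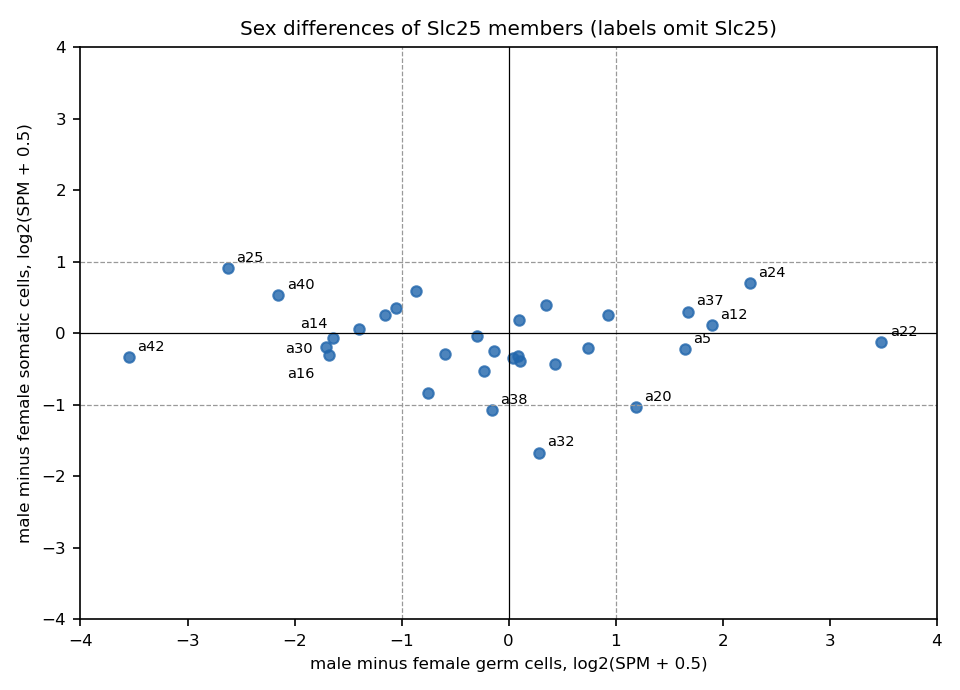
Male minus female difference in germ cells (horizontal) and in somatic cells (vertical) on the log2(SPM + 0.5) scale for 31 of the 32 members with 5 SPM or more in a germ and in a somatic library; dashed lines mark 2-fold. The points spread from -3.55 to 3.48 along the germ axis and from -1.67 to 0.91 along the somatic axis.

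The 3 members at least 4-fold lower in male germ cells were Slc25a42, Slc25a25 and Slc25a40. Slc25a42, the coenzyme A carrier (chromosome 8, 72708238 to 72736180), had 6.50 SPM in male germ cells, against 81.6 SPM in female germ cells, with 11.3 SPM in male and 14.4 SPM in female somatic cells. The male germ level was 12.5-fold lower (interval 10.7 to 14.8), and the female germ library was the 1 high library of the 4. Slc25a25, an ATP-Mg and phosphate carrier related to Slc25a24 (chromosome 2, 32270006 to 32306990), had 45.6 SPM in male germ cells, against 283 SPM in female germ cells, with 44.2 SPM in male and 23.3 SPM in female somatic cells. It was 6.22-fold lower in male germ cells (5.83 to 6.63). Its row overlaps Naif1 on the other strand by 1015 bases. Naif1 had 2.74 SPM in male germ cells, against 18.7 SPM in female germ cells, with 6.19 SPM in male and 6.58 SPM in female somatic cells. The sources used here do not say whether counting used strand, so reads in the overlap cannot be told apart. The same holds for Slc25a26, which overlaps Lrig1 by 125 bases, for Slc25a35, which overlaps Rangrf by 30 bases, and for Slc25a2, whose 1347 bases lie inside the row of Pcdha4-g, each on the other strand.

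With the male germ library left out, the female germ library stood alone against the somatic libraries. The log2 differences were then 3.12 for Slc25a25 and 2.63 for Slc25a42. Neither passed with all libraries (limma adjusted p = 0.264 and 0.683). Slc25a40, linked to glutathione import, had 5.16 SPM in male germ cells, against 24.6 SPM in female germ cells, with 13.5 SPM in male and 9.21 SPM in female somatic cells, and was 4.78-fold lower in male germ cells (3.94 to 5.86). Its relative Slc25a39 ran the other way, at 87.0 SPM in male germ cells against 52.0 SPM in female germ cells. Members between 2-fold and 4-fold lower in male germ cells included Slc25a10, Slc25a14, Slc25a16, Slc25a17, Slc25a28 and Slc25a30, with folds from 2.08 for Slc25a17 to 3.59 for Slc25a16. Among them the dicarboxylate carrier Slc25a10 had 7.43 SPM in male germ cells against 20.3 SPM in female germ cells.

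The 3 members at least 4-fold higher in male germ cells were Slc25a22, Slc25a24 and Slc25a12. Slc25a22, a glutamate carrier (chromosome 7, 148615647 to 148623773), had 22.8 SPM in male germ cells, against 1.59 SPM in female germ cells, with 19.4 SPM in male and 21.2 SPM in female somatic cells. The male germ level was 14.4-fold higher (interval 9.63 to 21.6), and the female germ library was the 1 low library. Slc25a12, an aspartate and glutamate carrier of the malate-aspartate shuttle (chromosome 2, 71112351 to 71205611), had 20.3 SPM in male germ cells, against 5.06 SPM in female germ cells, with 41.3 SPM in male and 38.3 SPM in female somatic cells. It was 4.01-fold higher in male germ cells (3.16 to 5.07). Slc25a24 was 5.53-fold higher (4.02 to 7.82). With the male germ library left out, the log2 differences of Slc25a12 and Slc25a22 were -2.86 and -3.32, from the female germ library alone. Neither passed with all libraries (limma adjusted p = 0.181 and 0.439).

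Between 2-fold and 4-fold higher in male germ cells were Slc25a5 at 3.23-fold, Slc25a20 at 2.30-fold and Slc25a37 at 3.65-fold. Slc25a4 was 1.91-fold higher (1.82 to 2.00). The summed signal of skeletal muscle genes was also higher in male germ cells. The 4 markers Myh3, Ckm, Actn2 and Myog summed to 81.0 SPM in male germ cells, against 6.69 SPM in female germ cells, with 2.80 SPM in male and 1.07 SPM in female somatic cells. The sum was carried by Actn2, at 60.5 SPM in male against 3.79 SPM in female germ cells, and Myh3, at 18.5 SPM in male against 0.897 SPM in female germ cells. Ckm had 1.02 SPM in male germ cells and was at 0 in the female germ library, and none was at 0 elsewhere. Myog ran the other way, with 1.01 SPM in male against 2.01 SPM in female germ cells. Their part in the male germ levels of Slc25a4 and Slc25a12 was not tested.

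The isoform Slc25a31 was nearly even between the sexes, 1.24-fold lower in male germ cells (1.21 to 1.28). Slc25a33 was 1.83-fold lower in male germ cells (1.72 to 1.95). The phosphate carrier Slc25a3 was 1.10-fold lower (1.05 to 1.15), a direction that turned with scaling by library totals or by the upper quartile, where its log2 ratio was 0.03 and 0.14. These scalings moved the median of all genes by 0.161 and 0.274 on the log2 scale in this comparison. Slc25a4 came to more than 2-fold under both, at log2 ratios of 1.10 and 1.21.

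In the somatic fractions the 4 members past 2-fold were Slc25a18, Slc25a20, Slc25a32 and Slc25a38, all lower in male cells. Slc25a18, a glutamate carrier (chromosome 6, 120723785 to 120744000), had 3.45 SPM in male somatic cells, against 20.2 SPM in female somatic cells, with 1.02 SPM in male and 3.15 SPM in female germ cells. It was 5.85-fold lower in male somatic cells (4.48 to 7.90). Slc25a32 was 3.27-fold lower in them (2.82 to 3.80). Slc25a38, a glycine carrier that red cell precursors use for haem, had 16.2 SPM in male somatic cells against 34.9 SPM in female somatic cells. The erythroid factor gene Gata1 stood at 1.08 SPM in male and 8.49 SPM in female somatic cells, and Klf1 at 0.659 SPM in male and 8.58 SPM in female somatic cells, while the erythroid list as a whole was higher in the male library. Their part in the level of Slc25a38 was not tested. The pregranulosa markers summed to 102 SPM in male and 950 SPM in female somatic cells, the Sertoli markers to 732 SPM (male) and 662 SPM (female), and the fetal Leydig markers to 1126 SPM (male) and 369 SPM (female), with none of these 3 lists' genes at 0 in either somatic library. Wt1 (367 SPM) and Gata4 (277 SPM) made up most of the female Sertoli sum and were higher in the female than in the male library. Amh (273 SPM in male, 0.379 SPM in female), Dhh (96.9 and 0.253 SPM), Sox9 and Cldn11 were higher in the male library. Fst held 704 SPM of the female pregranulosa sum, and Nr5a1 278 SPM of the female Leydig sum. The part of these markers in the 4 differences was not tested.

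Slc25a20, the carnitine and acylcarnitine carrier, was the 1 member past 2-fold in opposite directions in the fractions. It had 79.2 SPM in male germ cells, against 34.5 SPM in female germ cells, and 40.6 SPM in male somatic cells, against 83.9 SPM in female somatic cells. Its position is spanned by a row listed as Cdkn2d, as are those of Slc25a36 and Slc25a38. As listed, that row covers chromosome 9 from at least 96977429 to 120033437, so its coordinates may be wrong. Where counting shared reads between these rows, their levels are uncertain. The Cdkn2d row had 21.1 SPM (male) and 63.5 SPM (female) in germ cells and 30.2 SPM (male) and 23.0 SPM (female) in somatic cells.

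Within each sex the members split as follows. In males, 5 of 34 members were at least 2-fold higher in germ cells, against 24.4% of all genes, and 11 were lower, against 32.1% of all genes. In females, 9 of 35 were higher, against 27.2%, and 15 were lower, against 34%. At 4-fold, males had 3 higher and 4 lower, against 12.4% and 18.4% of all genes, and females had 5 higher and 8 lower, against 12.5% and 23.6%. The median log2 ratio of the members was -0.36 in males and -0.42 in females, against -0.16 in males and -0.03 in females over all genes counted.

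Chromosome X holds 3 members. Slc25a5 and Slc25a43, a carrier with no substrate assigned here, are neighbours with no listed gene in the 18448 bases between them. Slc25a43 (34283653 to 34317197) had 0.0274 SPM in male germ cells, from 1 estimated fragment, and 1.84 SPM in female germ cells, with 1.2 SPM in male and 1.93 SPM in female somatic cells. Slc25a5 was 3.23-fold higher in male germ cells (2.75 to 3.81) and Slc25a43 67.2-fold lower (8.24 to 2014), so the neighbours differed in direction. Slc25a14 was 3.14-fold lower in male germ cells (2.92 to 3.39). In somatic cells these 3 were 1.05-fold to 1.60-fold lower in males. The intervals of Slc25a14 (0.883 to 1.25) and Slc25a43 (0.928 to 2.84) included no difference, while that of Slc25a5 did not (1.08 to 1.26).

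The members listed at 0 were all low. Slc25a21, the oxoadipate carrier, had 0.302 SPM in male and 0.177 SPM in female germ cells, was listed at 0 for male somatic cells and had 4.24 SPM in female somatic cells. The male somatic level was at least 23.5-fold lower against a floor of 3 fragments per library, and the nearer bound of its interval was 18.8-fold. Slc25a34 had 0.146 SPM in male germ cells and a listed value of 0 in the female germ library, with 1.54 SPM in male and 1.13 SPM in female somatic cells. Slc25a48 had 0.521 SPM in male germ cells and 0.118 SPM in male somatic cells and was listed at 0 in both female libraries. Slc25a35 was under the floor in female germ cells, at 0.00986 SPM, and had 4.17 SPM in male germ cells, with 1.48 SPM in male and 1.42 SPM in female somatic cells. The male germ level was at least 23.2-fold higher against the same floor, with 18.6-fold as the nearer bound of its interval. None of these 4 members reached 5 SPM in any library. Of the other low members, Slc25a2, Slc25a29, Slc25a41 and Slc25a47 stayed between 0.0591 and 3.51 SPM in every library, and Slc25a45 reached 6.05 SPM in male somatic cells. The outer membrane relative Slc25a46 ranged from 13.0 SPM in male germ cells to 20.4 SPM in female somatic cells. Slc25a23, an ATP-Mg and phosphate carrier, ranged from 15.1 to 34.5 SPM, Slc25a27 from 7.58 to 16.9 SPM and Slc25a30 from 16.2 to 55.1 SPM.

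Genes that work with the carriers were counted alongside. Of 5 tested carrier relatives under other symbols, 2 fell in germ cells, against 5.56% of all genes tested. The uncoupling protein gene Ucp2 had 9.08 SPM (male) and 15.5 SPM (female) in germ cells, against 142 SPM (male) and 117 SPM (female) in somatic cells (log2 difference -3.39 ± 0.51, limma adjusted p = 0.0358). Mtch1, an outer membrane relative, had 28.8 SPM (male) and 29.8 SPM (female) in germ cells, against 174 SPM (male) and 151 SPM (female) in somatic cells (-2.45 ± 0.40, limma adjusted p = 0.0374). Of 4 outer membrane pore and permeability genes, 1 fell, against the same 5.56%: Vdac1, a voltage-dependent anion channel through which metabolites reach the carriers, had 30.2 SPM (male) and 28.0 SPM (female) in germ cells, against 379.8 SPM (male) and 453 SPM (female) in somatic cells (-3.81 ± 0.38, limma adjusted p = 0.0328).

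None of the 12 genes of carrier import passed in either direction by limma, although the receptor gene Tomm70a stood at 780.3 SPM (male) and 450.3 SPM (female) in germ cells, against 192 SPM (male) and 221 SPM (female) in somatic cells (adjusted p = 0.0872). At an unadjusted p under 0.05, 3 of the 12 were higher and 1 lower, against 12.7% and 18.7% of all genes. Of 5 genes of the pyruvate carrier and calcium uniporter, 6 of haem synthesis and 7 of mitochondrial biogenesis, none passed by limma, with 1, 2 and 0 lower and none higher at an unadjusted p under 0.05. The 4 enzymes of the malate-aspartate shuttle, which works through Slc25a11, Slc25a12 and Slc25a13, did not pass either, with none under an unadjusted p of 0.05. All 4 were at least 2-fold higher in male than in female germ cells, against 26.8% of all genes: Got1 by 8.24-fold, Mdh1 by 3.94-fold, Mdh2 by 3.37-fold and Got2 by 2.23-fold. Of the carriers of that shuttle, Slc25a12 had the same direction, Slc25a13 was 1.08-fold higher (0.906 to 1.28) and Slc25a11 was 1.52-fold lower in male germ cells (1.40 to 1.64). Of 5 mitochondrial folate enzymes, 3 were at least 2-fold higher in male germ cells, against 26.8% of all genes, with Shmt2 at 74.7 SPM against 5.47 SPM in female germ cells. The folate carrier Slc25a32 was 1.22-fold higher in male germ cells (1.13 to 1.32).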

How the data were processed

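RNA was measured in 4 libraries, 1 per group. Per the labels' protocols, total RNA was depleted of ribosomal RNA and sequenced strand-specifically in pairs. Per the submitters' processing notes, CASAVA 1.9, TopHat 1.2.0, edgeR and mm9 were used, with no role given. The sources used here do not state the gene counter, the annotation or whether counting used strand.

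The deposited values are whole numbers under a header that reads counts. They were treated as a signal scaled by 1 factor per library, which is an assumption. Low values cluster at a spacing of 4.105 to 6.11, and 43.1% to 54.3% of values up to 60 lie on its multiples, against 15% to 23.3% by chance. The spacing was itself chosen for the largest such excess among values up to 200, so the excess is not independent support. The other low values lie off the multiples. Totals were 99.3 to 107 M. The spacing was taken as 1 fragment, so fragment numbers, the floor and the intervals rest on that assumption. Some values lie under 1 spacing, such as Slc25a35 at 0.00986 SPM in female germ cells, estimated at 0 fragments. Of 20373 rows, 74 repeats were dropped.

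SPM is the deposited signal per 1000000 with trimmed-mean-of-M factors of 0.945 to 1.07. The log2(SPM + 0.5) values of genes that reached 1 SPM in 2 or more libraries were fitted with limma 3.58.1 (R 4.3.3, trend option on). That scale understates the folds of low genes. Ratios of 1 library to 1 were counted at 2-fold and 4-fold with 5 SPM in the higher library. Separate animals are not stated for the libraries. The p-values therefore cover the spread between these 4 libraries alone, which may be in part technical. Within a cell type that spread lies between 1 male and 1 female library, so it also holds the sex difference. Members whose germ libraries differed widely, such as Slc25a22 and Slc25a42, had a large SE (1.24 for each). Members, gene lists and rules were chosen with earlier results of these data known. Values in every library are given for the ADP/ATP carriers, members passing limma, members 4-fold apart between sexes, the 5 highest per kb, members listed at 0 and X-linked members, and others serve as examples of their group. The fit was also run on simulated data with independent spread between libraries and no sex difference. That run does not check the test where the libraries of a cell type differ in sex. Alternatives in scaling, pseudocount, filter, a sex term and left-out libraries were run. Coordinates are mm9 as deposited. The counts cover all 44 members, and 1 of them is not reported by name here or drawn in the figures.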

Additional observations from a re-analysis of the deposited data

Results flagged for a closer look

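Slc25a20 was flagged because its male and female levels differed in opposite directions in the fractions. The log2 ratio of male over female was 1.2 in germ cells and -1.05 in somatic cells. Slc25a40 was flagged because its germ and somatic levels differed in opposite directions in the sexes. The log2 ratio of germ over somatic was -1.39 in males and 1.42 in females. In both cases 1 library stood against 1 in each contrast, and the difference between the contrasts was not tested. Of the genes measured at 5 SPM or more in both contrasts, 4.37% were at least 2-fold apart in opposite directions between the fractions, with 1 of 32 members, and 4.22% between the sexes, with 1 of 34 members.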

How the results depend on the processing

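The count of members that rose in germ cells was 2, and with no filter on low values it was 0. At an unadjusted p under 0.05 in limma, 3 members and 2025 genes were then higher. The count that fell was 1, with 0 under scaling by the upper quartile, 0 with no filter and 3 with sex as a term. At an unadjusted p under 0.05 in limma, 6 members and 2294 genes were lower under the upper quartile. With no filter these were 7 members and 2600 genes. With 1 library left out, 1 cell type rests on a lone library, so no counts are read from those fits. In these fits a lone library is assumed to vary like the others, and the prior degrees of freedom ranged from 2.41 to 34.8. With sex as a term 3 members rose. The share of all genes passing in that fit is not given here, so its counts of members passing are not read as a result about the members. At an unadjusted p under 0.05 the fit with that term held 1824 genes higher and 2887 lower, with 4 and 7 members among them.

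The germ minus somatic difference turned sign for Slc25a40, which was 0.03 with all libraries, at -1.04 (female germ library left out) and -0.23 (female somatic library left out), and was 1.11 without the male germ library. Other members also turned sign when either germ library was left out. Slc25a22 ranged from -3.32 to 0.17, Slc25a42 from -0.92 to 2.63, Slc25a43 from -1.95 to 0.21 and Slc25a35 from -1.93 to 1.26. Further turns included Slc25a28 from -0.17 to 0.98, Slc25a30 from -1.64 to 0.06 and Slc25a23 from -0.75 to 0.006. None of these members passed the test with all libraries. In males, 8 members were at least 2-fold higher in germ than in somatic cells under scaling by the upper quartile, against 5. That scaling moved the median of all genes by 0.309 on the log2 scale towards male germ cells in this comparison. With 1 SPM as the minimum, 2 members were 4-fold lower in male than in female somatic cells, against 1. The shares of all genes under these alternatives are not given here, so the changes are not read as particular to the members. Of the other counts under an alternative, 107 stayed within 1.5 times the main count. The cause of the changes was not tested.

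The median of all genes shifted by more than 0.1 on the log2 scale under the upper quartile or library totals in every comparison, by -0.128 to 0.309. The members' median in male over female germ cells was -0.16, and 0.11 under the upper quartile. No paired analysis was possible by replicate number, because each group holds 1 library. The fit with sex as a term, which sets the germ and the somatic library of each sex against each other, left 1 residual degree of freedom, and its calls are given above. Depth limits the members under 5 SPM, whose ratios rest on few fragments.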
